A study of Mus musculus with 2 samples.

Results

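The glutathione, thioredoxin and NRF2 antioxidant genes are the enzymes and regulators that keep reactive oxygen species and free iron of a cell in check. They were taken by gene symbol from a list of 41 genes. Of these, 39 matched a row among the 16803 genes of the table, and Gpx7 and Gstm5 matched none. RNA was sequenced from NE4C, an established line of mouse neural stem cells, derived from embryos lacking p53. It was grown on poly-L-lysine in Eagle MEM, either as a normal culture (control) or with homocysteine thiolactone (HTL), the reactive ring form of homocysteine that can bind lysines in proteins. The study describes starvation in low serum before HTL for its work on protein modification. It does not state whether the sequenced cells were starved. The conditions had 1 library each, of 10350665 reads in the control and 9102076 reads after HTL, so the differences below have no replicate check. The dose and the duration of HTL are not given in the labels. Tests and intervals therefore compare these 2 libraries, not the conditions, and cover counting error only.

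In most cells the transcription factor NRF2 (Nfe2l2) is bound by KEAP1 and degraded, and when reactive compounds modify KEAP1, NRF2 enters the nucleus and binds antioxidant response elements near its targets. Glutathione and thioredoxin are the main thiol systems of the cell. They feed electrons to the peroxidases and peroxiredoxins that remove peroxides, while ferritins store the iron that would otherwise turn peroxides into radicals. Homocysteine is itself a thiol and, through cysteine, a source of glutathione.

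The core of the antioxidant response element, TGACNNNGC, was searched on both strands of the RefSeq promoter window (GRCm38.p6) that runs from 250 bases before to 50 bases after each gene start. A window was given for 34 of the 39 genes, and none for Hmox1, Gclc, Gsr, Gsta4 and Prdx6. The core was found in 7 of the 34 genes (20.6%), namely Nfe2l2, Gclm, Mgst1, Txnrd1, Prdx1, Srxn1 and Sod1, and in 16.9% of the 10214 tested genes with a window and 13.99% of all 27025 genes with one. A match is a description of letters and not a binding site. The first bases of the core are also those of the AP-1 motif TGACTCA, so a match can hold parts of both. The stretches that hold the core before the gene start are shown 5′ to 3′ on the strand of the gene so that the letters matched can be read in their context. Capitals mark the 9 bases of the core, read on the strand of the gene for Nfe2l2 and on the opposite strand (as GCNNNGTCA) for the others.
Nfe2l2, chr2:75704875-75704913, minus strand: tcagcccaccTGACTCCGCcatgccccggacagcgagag
Gclm, chr3:122245403-122245451, plus strand: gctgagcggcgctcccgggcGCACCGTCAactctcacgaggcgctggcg
Prdx1, chr4:116685446-116685494, plus strand: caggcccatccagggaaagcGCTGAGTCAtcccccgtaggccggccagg
Mgst1, chr6:138140451-138140499, plus strand: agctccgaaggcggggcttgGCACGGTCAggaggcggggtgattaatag
Txnrd1, chr10:82859094-82859142, plus strand: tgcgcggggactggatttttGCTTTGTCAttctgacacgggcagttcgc
Sod1, chr16:90220686-90220734, plus strand: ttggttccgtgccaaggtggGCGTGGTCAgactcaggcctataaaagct
The core began 240 bases before the start of Nfe2l2, 134 before Gclm, 133 before Prdx1, 92 before Txnrd1 and 56 before Mgst1 and Sod1. Of these, Txnrd1 and Sod1 rose after HTL and the other 4 did not pass the test. The median log2 ratio was 0.16 over the genes with the core and 0.098 over the genes with a window and no core, while over all genes tested with a window it was -0.12 and -0.14.

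Of the genes that passed the call described next, Keap1 and Ftl1 had a window, and neither held the core in it. Sequence outside the window was not searched, so the lack of a match says nothing about elements farther away. Their 250 bases before the gene start are shown for comparison with the stretches above (GRCm38.p6, strand of the gene, no part in capitals). Their G and C content was 49.6% and 65.2%.
Keap1, chr9:21239333-21239582, minus strand: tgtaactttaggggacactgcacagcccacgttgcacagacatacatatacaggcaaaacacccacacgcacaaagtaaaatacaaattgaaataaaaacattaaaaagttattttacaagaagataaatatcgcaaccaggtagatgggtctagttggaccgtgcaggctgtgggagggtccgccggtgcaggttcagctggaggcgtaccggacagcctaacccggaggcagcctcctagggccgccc
Ftl1, chr7:45459887-45460136, minus strand: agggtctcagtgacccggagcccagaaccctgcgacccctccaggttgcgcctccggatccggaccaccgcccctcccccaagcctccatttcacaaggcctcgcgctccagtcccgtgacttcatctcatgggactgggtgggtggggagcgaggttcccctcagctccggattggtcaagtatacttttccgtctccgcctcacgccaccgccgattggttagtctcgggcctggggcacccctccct

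The comparison addressed the response of the antioxidant genes to HTL. After HTL the transcripts of the iron store ferritin light chain (Ftl1) and of the haem-degrading enzyme haem oxygenase 1 (Hmox1) were 2.04 and 2.17 times as abundant, and those of Keap1, the inhibitor of NRF2, were 2.41-fold lower. Of the 4 genes of glutathione synthesis and recycling 2 fell and none rose, where 24.1% of all genes tested fell, and neither Nfe2l2 nor the quinone reductase Nqo1 passed the test. A two-sided exact binomial test set the reads of each gene against the library totals, with Benjamini-Hochberg adjustment over the 13442 genes that had 10 or more reads when both libraries were summed. The call required an adjusted p of 0.001 or less together with a log2 ratio of 1 or more in size. "Rose" and "fell" below mean that the adjusted p passed, whether or not the ratio did. Gstp1 (0 and 3 reads) and Gpx3 (4 reads in each library) had too few reads, which left 37 genes tested.

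Of the 37 genes, 2 were called higher (Ftl1 and Hmox1, 5.41%), beside 2.81% of all genes tested, and 1 was called lower (Keap1, 2.70%), beside 7.98% of all. Over all genes this was 378 higher and 1072 lower, a split that TMM scaling, edgeR's trimmed mean of ratios, moved to 552 and 800. By the adjusted p alone 10 rose (27.0%), beside 14.5% of all genes, and 3 fell (8.11%), beside 24.1% of all. The other 24 did not pass. The error between cultures cannot be measured here, and in edgeR's exact test 5 of the 13 genes past the adjusted p (Ftl1, Hmox1, Nfe2l1, Gpx1 and Keap1) passed when the biological coefficient of variation was taken as 0.1. The other 8 did not, and at 0.2 none of the 13 passed, the 3 called genes included. Of the 13442 genes tested, 1357 passed the adjusted p in edgeR's exact test at 0.1, beside 5 of the 37. With the log2 ratio of 1 also required, 1127 of all genes were called at 0.1, beside 3 of the 37. The 10 genes that rose were Ftl1, Fth1, Hmox1, Nfe2l1, Gpx1, Prdx4, Prdx2, Txnrd1, Sod1 and Prdx6, and the 3 that fell were Keap1, Gsr and Gclc. The antioxidant genes had a median of 1083 reads in both libraries together, against 386 for all genes, and more reads make a given ratio easier to pass.

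The median log2 ratio of the 37 genes was 0.098, while that of all genes tested was -0.14. Above 0 lay 21 of the 37 genes, and above the median gene 27. These transcripts were short, with a median of 1445 bases against 2888 bases for all genes tested, and 22 of the 37 lay in the 2 shortest of 10 equal classes of genes by length. Ratios moved with length in these libraries, from a median of 0.14 in the shortest class to -0.38 in the longest. Relative to the median of its own length class, the median antioxidant gene stood at 0.12, and among genes that rose or fell Sod1 stood at 0.023, Fth1 at 0.21, Gclc at -0.23 and Gsr at -0.30. The part of length in these ratios was not tested.

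**Figure D1:**
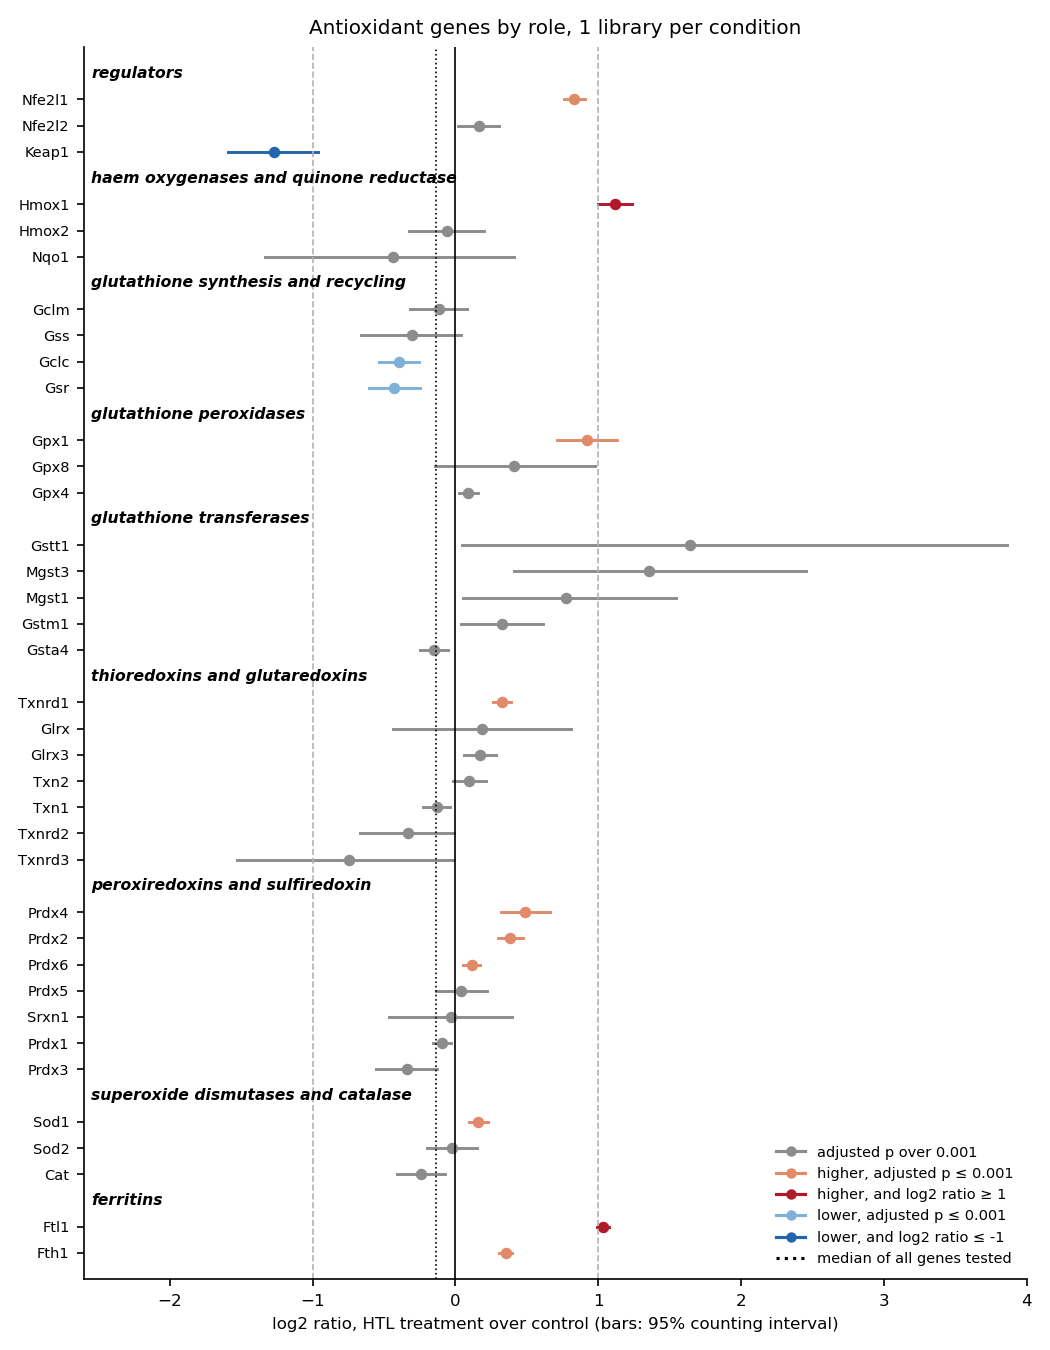
Log2 ratio of each of the 37 tested antioxidant genes, HTL treatment over control, grouped by role on the vertical axis. Bars are 95% exact counting intervals from 1 library per condition, dashed lines mark -1 and 1, and the dotted line the median of all genes tested at -0.14. Hmox1 at 1.12 and Ftl1 at 1.03 lie beyond 1 with a passing adjusted p, Keap1 at -1.27 lies beyond -1, and the wide bars of Gstt1 and Mgst3 reflect 16 and 43 reads in both libraries.

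Together the 39 genes took 54295 control reads, 0.525% of the library (95% exact Clopper-Pearson interval 0.520 to 0.529%), and 60570 reads after HTL, 0.665% (0.660 to 0.671%). Ftl1 and Fth1 held 14299 and 20910 of these reads, so the ferritins made up most of the added share. In a bulk culture, a change in the RNA per cell and a change in the kinds of cells present cannot be told apart.

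Per transcript length, levels are given as FPKM, fragments scaled to transcript length and library size. In the control library Fth1 (743 FPKM), Ftl1 (721), Sod1 (543), Gpx4 (396) and Prdx1 (306) were highest. After HTL Ftl1 came first at 1471 FPKM and Fth1 followed at 946, with Sod1 (606), Gpx4 (422) and Prdx1 (286) next in the same order. At the low end Nqo1 (1.94 and 1.42), Txnrd3 (1.56 and 0.92), Gstt1 (0.38 and 1.28), Gpx3 (0.26 and 0.29) and Gstp1 (0.01, the lowest value listed, and 0.41) were below 2 FPKM in both libraries.

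**Figure D2:**
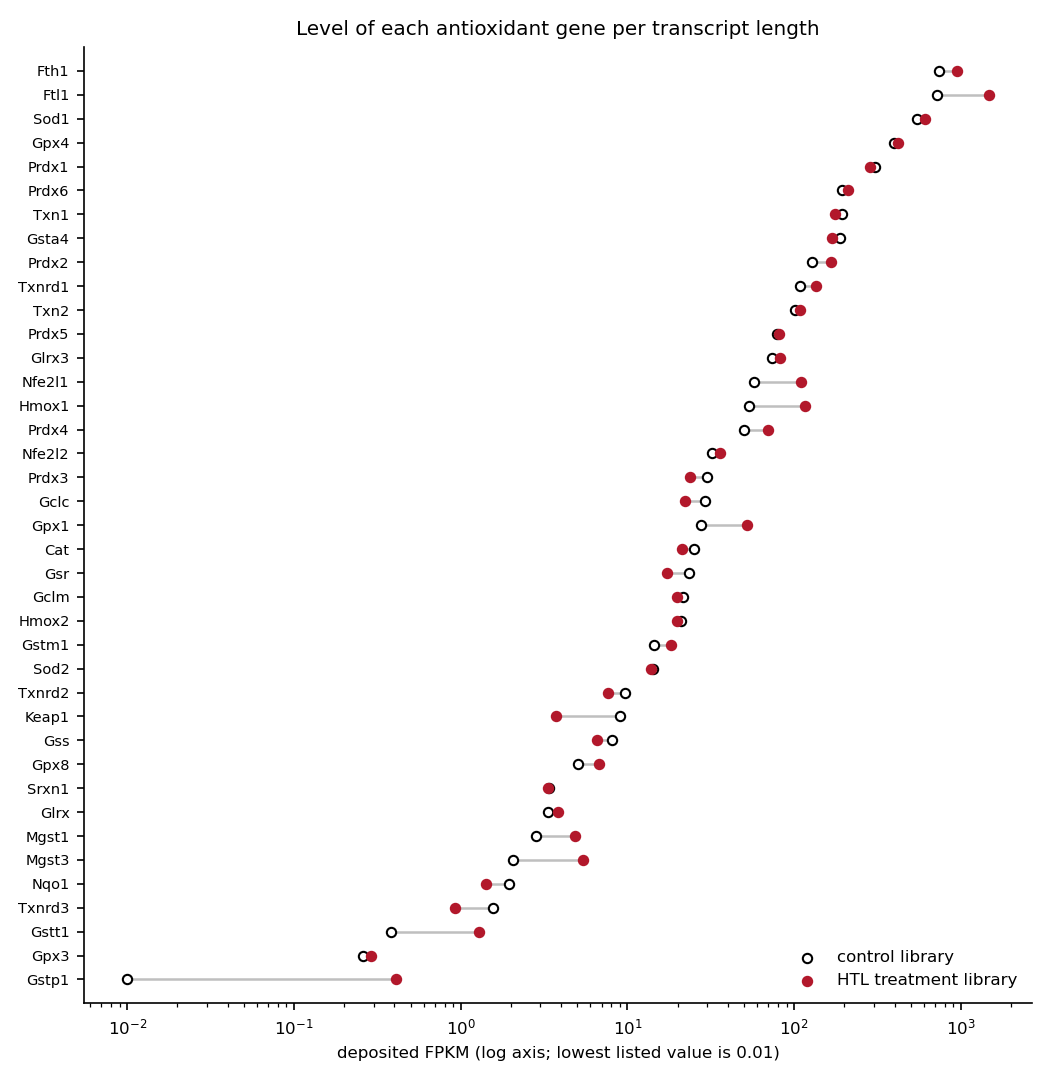
Deposited FPKM of the 39 matched antioxidant genes on a log axis, control library as open and HTL treatment library as filled circles, ordered by the control level, with 1 library per condition and no error bars. Ftl1 and Fth1 stand highest in both libraries, and Keap1 (8.97 and 3.73 FPKM) shows the longest step to lower values.

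Among the regulators, Keap1, whose protein tags NRF2 for degradation (NCBIM37 chromosome 9, 21034174 to 21043776, minus strand), went from 316 reads to 115. The log2 ratio of Keap1 was -1.27 (95% interval -1.59 to -0.96, adjusted p = 1.38e-16 by the exact binomial test). Its exons overlap Gm16754 on the opposite strand, and the counting is not stated to use strand, so its reads are uncertain. Opposite-strand overlaps also affect Hmox2, Gclm, Gss, Txnrd2, Prdx2 and Prdx5, and so the read ratios given below over Hmox2 and Txnrd2. Nfe2l2, which encodes NRF2, went from 829 reads to 816, at 0.16 (0.021 to 0.30), short of the test, but it passed as higher under each of 3 other scalings (0.29 with TMM). Nfe2l1 encodes the related factor NRF1, which resides in the endoplasmic reticulum membrane and switches on proteasome genes. It rose from 2633 to 4126 reads, a log2 ratio of 0.83 (0.76 to 0.90) with an adjusted p of 3.71e-120 in the exact binomial test. There were 2.62 Nfe2l2 reads per Keap1 read in the control library and 7.10 after HTL, a ratio within each library that no scaling changes.

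Hmox1 (NCBIM37 chromosome 8, 77617490 to 77624495, plus strand) breaks haem down to biliverdin, carbon monoxide and iron. It had 903 reads in the control library and 1721 after HTL, a log2 ratio of 1.12 (0.999 to 1.23) with an adjusted p of 7.14e-82 in the exact binomial test. Its constitutive counterpart Hmox2 had 268 and 226 reads, at -0.060 (-0.32 to 0.20), above 0 under each other scaling. Hmox1 thus had 3.37 reads per Hmox2 read in the control library and 7.62 after HTL. Nqo1, the quinone reductase often used as a readout of NRF2, had 31 and 20 reads, and its interval of -1.34 to 0.41 holds changes in either direction.

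Glutathione is made by glutamate-cysteine ligase, with its catalytic subunit Gclc and modifier subunit Gclm, and by the synthase Gss, and it is recycled by the reductase Gsr. All 4 genes had log2 ratios below 0, except that Gclm was above 0 under TMM and median of ratios scaling, and the median was -0.35, with 2 of the 4 past the test. Gclc had 1053 reads in the control library and 704 after HTL, a log2 ratio of -0.40 (-0.54 to -0.26) with an adjusted p of 6.97e-08 in the exact binomial test. Gsr went from 655 to 428, a log2 ratio of -0.43 (-0.61 to -0.25) with an adjusted p of 5.87e-06 in the same test. Gclc stayed past the test under 3 other scalings, while Gsr did not under TMM, where its log2 ratio was -0.30 and its adjusted p in the exact binomial test 0.0021. Gclm (460 and 373 reads) and Gss (166 and 118 reads) did not pass, at -0.12 and -0.31. Each library thus held the transcripts of the whole route, at FPKM values between 8.12 and 29.4 in the control and 6.55 and 22.3 after HTL.

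The glutathione peroxidases spend glutathione to reduce peroxides. Gpx1, the main cytosolic enzyme, rose from 299 to 498 reads, a log2 ratio of 0.92 (0.71 to 1.13, adjusted p = 6.54e-18 by the exact binomial test), just short of the call. It was called under each of the 3 other scalings. Gpx4, which protects membrane lipids and guards against ferroptosis, had 3916 and 3668 reads, at 0.091 (0.026 to 0.16), which passed the test under each other scaling (0.22 with TMM) and was -0.046 relative to genes of like length. Gpx8, of the endoplasmic reticulum, had 52 and 61 reads, at 0.41 (-0.14 to 0.98). Gpx1 thus went from 0.0764 to 0.136 reads per Gpx4 read.

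The glutathione transferases join glutathione to electrophiles, and none of the 5 tested passed. The most abundant, Gsta4, which handles the lipid aldehyde hydroxynonenal, had 1843 and 1461 reads, at -0.15 (-0.25 to -0.050). Gstm1 had 195 and 215 reads, at 0.33 (0.040 to 0.61). The membrane-bound Mgst3 had 13 and 30 reads, at 1.36 (0.41 to 2.45), Mgst1 had 27 and 41, at 0.78 (0.052 to 1.55), and Gstt1 had 4 and 12, at 1.65 (0.048 to 3.86). The median of the 5 genes, 0.78, therefore rests on genes of few reads, and the abundant transferase had the lowest ratio. The reads of Gstm1 and Gstp1 were fractional before rounding, a sign that they were shared with similar genes.

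In the thioredoxin and glutaredoxin group 1 of 7 genes rose (14.3%), a share like the 14.5% of all genes, and none fell. Txnrd1, the cytosolic reductase that recharges thioredoxin, rose from 3824 to 4214 reads, a log2 ratio of 0.33 (0.26 to 0.39) with an adjusted p of 6.26e-23 in the exact binomial test. Its substrate Txn1 had 2061 and 1655 reads, at -0.13 (-0.23 to -0.037), which under TMM was -0.0011. The mitochondrial pair Txn2 (1333 and 1255 reads, 0.098) and Txnrd2 (191 and 133 reads, -0.34) and the reductase Txnrd3 (46 and 24 reads, -0.74) did not pass either. Glrx3, an iron-sulfur carrying glutaredoxin (1244 and 1233 reads), was at 0.17 (0.058 to 0.29). Of these genes Glrx3 passed as higher under each other scaling and Txn2 under TMM and the median of ratios. The reads of Glrx3 were fractional before rounding, and with similar genes summed its log2 ratio was 0.13 and did not pass. Glrx had 46 reads in each library, at 0.18 (-0.44 to 0.81). Txnrd1 thus moved from 20.02 to 31.7 reads per Txnrd2 read.

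The peroxiredoxins reduce peroxides at a cysteine that thioredoxin restores, and 3 of 7 genes of this group rose, beside 14.5% of all genes. The group had a median of 1131 reads in both libraries together. Prdx4, the enzyme of the endoplasmic reticulum lumen, rose from 506 to 625 reads, a log2 ratio of 0.49 (0.32 to 0.66) with an adjusted p of 6.08e-08 in the exact binomial test. Cytosolic Prdx2 rose from 1930 to 2216 reads (0.38, 0.30 to 0.47), and Prdx6 went from 4809 to 4574 reads, which against the smaller HTL library was a rise of 0.11 (0.054 to 0.17). The abundant Prdx1 had 4448 and 3663 reads, at -0.095 (-0.16 to -0.031), and lay above 0 with TMM or median of ratios scaling. Mitochondrial Prdx3 had 446 and 310 reads, at -0.34 (-0.55 to -0.13, adjusted p = 0.00353 by the exact binomial test). Prdx5 (540 and 489 reads, 0.042) and the sulfiredoxin Srxn1, which repairs overoxidised peroxiredoxins (100 and 86 reads, -0.032, above 0 under each other scaling), also did not pass. Prdx4 thus had 1.13 reads per Prdx3 read in the control library and 2.02 after HTL.

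By cell compartment, Prdx4 and Gpx8 of the endoplasmic reticulum had log2 ratios of 0.49 and 0.41, and the mitochondrial Txn2, Txnrd2, Prdx3 and Sod2 had a median of -0.18, with 1 of the 4 above 0, or 2 under each other scaling, where Sod2 joined Txn2. Of these 6 genes Prdx4 alone passed the test as reported here, and the difference between the compartments was not tested.

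Superoxide dismutases turn superoxide into hydrogen peroxide, and catalase removes it. Cytosolic Sod1 had 3574 and 3512 reads and rose by 0.16 on the log2 scale (0.093 to 0.23, adjusted p = 1.03e-05 by the exact binomial test). Mitochondrial Sod2 had 565 and 489 reads, at -0.023 (-0.20 to 0.15), above 0 under each other scaling. Peroxisomal catalase, Cat, had 666 and 496 reads, at -0.24 (-0.41 to -0.070), which did not pass.

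Both ferritin chains rose. Ftl1, the light chain (NCBIM37 chromosome 7, 52713314 to 52715254, minus strand), went from 7211 reads in the control to 12960 after HTL, a log2 ratio of 1.03 (0.99 to 1.07) that passed the call. The heavy chain Fth1, which carries the ferroxidase site, went from 7088 to 7950, at 0.35 (0.30 to 0.40, adjusted p = 7.66e-49 by the exact binomial test). The chains were near 1:1 in reads in the control library (1.02 Ftl1 reads per Fth1 read) and 1.63 after HTL. Exons of Ftl1 overlap AC151602.1 on the same strand. Relative to genes of its own length class, Ftl1 stood at 0.89, short of the call, while Nfe2l1, at 1.04, passed it.

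**Figure D3:**
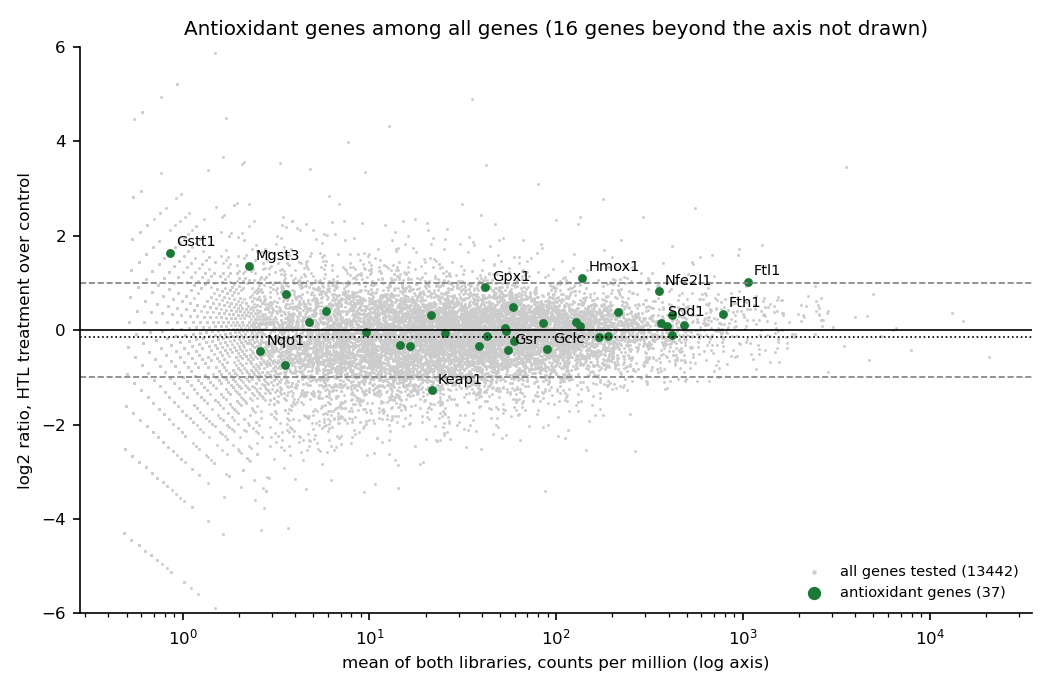
Log2 ratio of every gene tested (grey) and of the 37 antioxidant genes (green) against the mean of both libraries in CPM (counts scaled to the library total) on a log axis; 16 genes beyond an absolute log2 ratio of 6 are not drawn. Most antioxidant genes lie between the dashed lines at -1 and 1, with Hmox1 and Ftl1 above and Keap1 below among genes of ample reads.

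Other genes of the pathway were counted over 5 lists, which held 76 genes, 69 with a row in the table and 67 tested. Of the 67, 8 were called higher (11.9%), beside 2.81% of all genes, and 1 was called lower (1.49%), beside 7.98% of all. The median log2 ratio of the 67 was 0.039. By the adjusted p alone 18 rose (26.9%), beside 14.5% of all genes, and 8 fell (11.9%), beside 24.1% of all.

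Among 21 partners and other targets of NRF2, 4 were called higher (19.0%, beside 2.81% of all genes) and none lower (beside 7.98% of all). Their median log2 ratio was 0.11. Sqstm1, whose protein p62 draws KEAP1 into autophagy, rose from 1494 to 3332 reads, a log2 ratio of 1.34 (1.25 to 1.43). Mafk, a small Maf partner of NRF2 on DNA, rose from 86 to 184 reads (1.28), and the epoxide hydrolase Ephx1 from 61 to 133 (1.30). Osgin1 rose from 6 to 24 reads, a log2 ratio of 2.09 with a wide interval of 0.86 to 3.77, and its call was lost without a filter on low reads, with the ratio of FPKM + 1 and in edgeR's exact test at a coefficient of variation of 0.1. Short of the call, the repressor Bach1 (0.40), the pentose phosphate enzymes Tkt (0.42) and Taldo1 (0.38) and the biliverdin reductase Blvrb (0.54) rose. The pentose phosphate enzymes G6pdx (-0.29) and Pgd (-0.10) and the biliverdin reductase Blvra (24 and 14 reads, -0.58) lay below 0 and did not pass. The cystine carrier Slc7a11, the most abundant of the list by reads, fell from 17870 to 12153 reads, a log2 ratio of -0.37 (-0.40 to -0.34). It is a long transcript, and relative to its length class it stood at 0.0068.

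Of 17 other glutathione genes tested, 2 were called higher (11.8%, beside 2.81% of all genes) and none lower (beside 7.98% of all). Slc3a2, the heavy chain that pairs with Slc7a11 and with other amino acid carriers, rose from 3091 to 7946 reads, a log2 ratio of 1.55 (1.49 to 1.61). Slc3a2 thus went from 0.173 to 0.654 reads per Slc7a11 read, and the reads of both genes were fractional before rounding. Gstm2, a transferase with fractional reads, rose from 45 to 82 reads (1.04, adjusted p = 0.000223 by the exact binomial test). Its call was lost with 5 reads added, with the ratio of FPKM + 1, relative to its length class (0.91) and in edgeR's exact test at a coefficient of variation of 0.1. Chac1, which breaks glutathione down, had 267 and 243 reads, at 0.049 (-0.21 to 0.31).

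Of 15 other thioredoxin and repair genes, 2 were called higher (13.3%, beside 2.81% of all genes) and 1 lower (6.67%, beside 7.98% of all). Txnip, whose protein binds and blocks thioredoxin, rose from 23 to 621 reads, a log2 ratio of 4.91 (4.34 to 5.61), while its partners Txn1 and Txn2 did not pass the test. Sesn2, a stress-induced sestrin, rose from 447 to 2063 reads (2.39, 2.24 to 2.54). The methionine sulfoxide reductases were split: Msrb2, of mitochondria, fell from 79 to 33 reads (-1.06, -1.71 to -0.47; not called under any other scaling), and Msra (125 and 201 reads, 0.87) and Msrb1 (89 and 130 reads, 0.73) rose short of the call.

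Selenoproteins such as Gpx1, Gpx4 and Txnrd1 need selenocysteine. None of the 7 genes listed under selenoprotein synthesis was called. By the adjusted p 3 of them fell (42.9%), beside 24.1% of all genes. These were Sephs2 from 964 to 533 reads (-0.67), Sephs1 from 1850 to 1107 (-0.56) and the elongation factor Eefsec from 384 to 243 (-0.47). Relative to their length classes these stood at -0.56, -0.28 and -0.34. None of 7 iron handling genes was called either. Ncoa4, which delivers ferritin to the lysosome, rose from 528 to 647 reads (0.48) and the iron regulatory gene Aco1 from 638 to 699 (0.32). Ireb2, the other iron regulatory gene, fell from 2319 to 1316 reads (-0.63), or -0.35 relative to its length class.

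**Figure D4:**
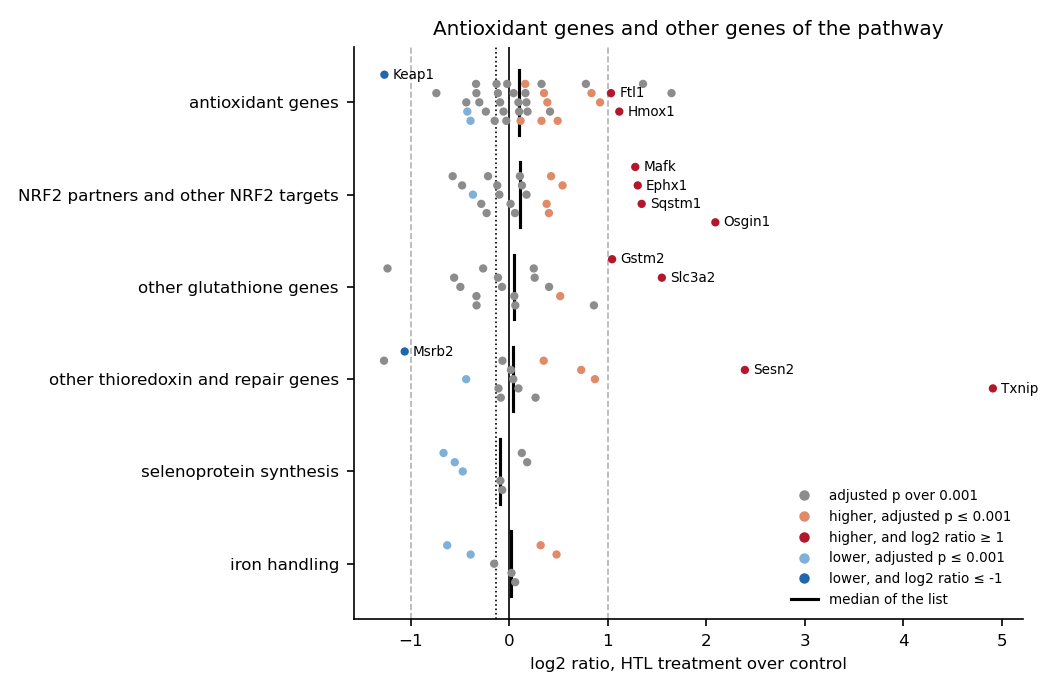
Log2 ratio of each tested gene, HTL treatment over control, for the 37 antioxidant genes and the 5 other lists of the pathway; thick bars are list medians, dashed lines mark -1 and 1 and the dotted line the median of all genes tested. Txnip at 4.91 and Sesn2 at 2.39 lie farthest right, and the selenoprotein synthesis and iron handling lists have no gene beyond either dashed line.

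The line was checked against its markers. All 10 neural stem cell markers had a row, and 8 of the 10 were at or above 1 FPKM in the control library and 7 after HTL, among them Nes (1617 and 1365 reads) and Msi1 (617 and 555 reads). Their summed level was 194 FPKM in the control library and 139 after HTL. Of the 9 tested, Sox2 (894 and 285 reads), Vim (1487 and 648 reads) and Sox1 (48 and 12 reads) were called lower (33.3%, beside 7.98% of all genes). Notch1 (124 and 231 reads) was called higher (11.1%, beside 2.81% of all). Prom1 rose short of the call (443 and 555 reads, log2 ratio 0.51). Markers of neurons summed to 22.1 and 29.6 FPKM. Among them Tubb3 rose from 296 to 396 reads (log2 ratio 0.60), and Dcx was called lower (88 and 29 reads). The sums for astrocytes, oligodendrocytes, microglia, endothelium and fibroblasts were at most 4.32 FPKM in either library, and of their defining genes Gfap had 2 and 0 reads and Mog 0 and 1. Most of the oligodendrocyte and microglia sums came from Mbp (182 and 186 reads) and Tmem119 (61 and 40 reads). Aldh1l1, the astrocyte marker with enough reads to test, was called higher (21 and 56 reads, log2 ratio 1.58). The part of these marker shifts in the antioxidant genes was not tested.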

How the data were processed

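RNA of NE4C cells was sequenced in 1 control and 1 HTL treatment library, grouped by sample title. Per the labels, libraries were made with a TruSeq kit and run with BGISEQ protocols. The authors deposited 1 table, with RSEM estimated counts and FPKM for each gene. The deposited estimated counts are not normalized, and 21.8% of control and 20.2% of HTL values were fractional, because RSEM divides reads among similar genes. For FPKM the authors divided by transcript length and library size. The deposited log2 ratio and p-value, with an FDR, are the authors' own comparison and were not used. The genome build was mm9 per the submitters' processing notes, and the mapper, versions, annotation and strand use are not given in the sources used here.

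Counts were rounded, which left 10350665 control and 9102076 HTL reads, and 3361 genes with under 10 reads in both libraries together were left out. The two-sided exact binomial test (scipy 1.17.1, Python 3.11.15) compared each gene's reads with the library totals. The cutoffs follow the methods of the study. Before log2 ratios, 0.5 read was added, in proportion to the totals. Exact Clopper-Pearson intervals (95%) came from the share of reads in the HTL library. Molecular identifiers are not mentioned, so reads cannot be taken as independent molecules, and intervals, tests and floors cover counting error only. A count of 0 allows up to 3 reads, 0.29 CPM in the control library and 0.33 CPM after HTL. Without replicates neither DESeq2 nor the quasi-likelihood test of edgeR could be fitted. Alternatives were TMM (edgeR 4.0.16), median of ratios (DESeq2 1.42.0) and upper quartile scaling, other filters, cutoffs and added reads, the ratio of FPKM + 1, summed similar genes, length-relative ratios and edgeR's exact test with assumed coefficients of variation, in R 4.3.3. The test was checked on simulated data.

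The members, lists and tests were chosen with earlier results of these data known. Every member may be named. In full are the called members and, per role group, the highest and lowest ratio among genes with at least 50 reads. From each other list the rule named the called genes, at most 3 rises and 3 falls. Mafk and the uncalled genes named from these lists fall outside it and were chosen after their values were seen. The value of 1 gene of these lists is not reported here. Coordinates are from GENCODE on NCBIM37 (mm9). Promoter sequences are from RefSeq on GRCm38.p6, matched by symbol.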

Additional observations from a re-analysis of the deposited data

How the results depend on the processing

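No paired analysis was possible because the control and HTL had 1 library each, and none could be left out. The called antioxidant genes, 3 in all (2 higher, 1 lower), were 0 in edgeR's exact test when the biological coefficient of variation was taken as 0.2 or 0.4, where 6 and 0 of the 37 had an unadjusted p under 0.05, and 5 (4 higher, 1 lower) when a log2 ratio of 0.5 in size was enough. The called pathway genes, 9 in all, were 2 (Sesn2 and Txnip) at 0.2, 0 at 0.4 and 16 (12 higher, 4 lower) with that smaller ratio. Over all genes tested, 120 were called at 0.2 and 6 at 0.4. For the smaller ratio and the unadjusted p no count over all genes is given. Those counts therefore cannot be compared with all genes. At 0.2 the lowest adjusted p of an antioxidant gene in edgeR's exact test was 0.0720, for Keap1. The spread between cultures cannot be measured here. Under the other alternatives run the counts stayed between 3 and 4 and between 6 and 10. The antioxidant genes past the adjusted p alone stayed between 13 and 16 over the scalings, filters, added reads, FPKM, summed and length-relative settings, and were 5 in edgeR's exact test at a coefficient of variation of 0.1 and 0 at 0.2 and 0.4. Over all genes tested, 1357 passed the adjusted p in that test at 0.1, 120 at 0.2 and 6 at 0.4. TMM, the median of ratios and the upper quartile raised log2 ratios by 0.13, 0.14 and 0.093. Calls over all genes were 378 higher and 1072 lower as reported, and 552 and 800, 559 and 788 and 498 and 860 under the 3 scalings. They put 5, 6 and 3 of the 37 antioxidant genes on the other side of 0, all among Hmox2, Gclm, Txn1, Prdx1, Srxn1 and Sod2, and length-relative ratios put 4 there (Gpx4, Prdx5, Srxn1, Sod2). Nfe2l2, Gpx4 and Glrx3 passed the adjusted p as higher under each of the 3 scalings, and Gsr lost it under TMM and the median of ratios. The median log2 ratio of the antioxidant genes tested ran from 0.091, over the 31 genes that averaged 50 reads or more, to 0.23.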
